A study of Mus musculus with 39 samples.

Results

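Cytochrome P450 enzymes (P450s) of families 1 to 3 oxidise drugs, pollutants, steroids, bile acids and fatty acids, and the liver is the organ best known for them. Genes were taken into the group when their symbol was Cyp followed by a 1, 2 or 3, a subfamily letter and a number, and when they reached at least 10 counts in at least 3 of the 30 liver libraries. Of 58 matching symbols 47 met this rule, among 15662 genes with the same minimum. The other 11 were below it in liver, namely *Cyp2b19*, *Cyp2b23*, *Cyp2c65*, *Cyp2c66*, *Cyp2d34*, *Cyp2j7*, *Cyp2j11*, *Cyp2j12*, *Cyp2j13*, *Cyp2w1* and *Cyp3a57*. The 47 genes fell into 15 subfamilies, the largest being Cyp2c with 13 genes, Cyp2d with 7 and Cyp3a with 6, and *Cyp2c44* is called *Cyp2c23* in the annotation.

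The livers came from male C57BL/6 mice on chow, aged 10 to 16 weeks by the study's methods. Mice lacking the basic helix-loop-helix factor E47 in the whole body (E47-/-, here E47KO) and E47+/+ littermates (WT) were left untreated (6 E47KO and 5 WT), drank corticosterone (Cort), the natural glucocorticoid of mice, at 100 µg/ml for 3 weeks (4 and 4), or drank the synthetic glucocorticoid dexamethasone (Dex) at 10 µg/ml for 3 weeks (3 and 2). Livers of both long treatments were taken after a glucose tolerance test, for which mice fast overnight. A further experiment used 1 injection of Dex at 1 mg/kg and livers taken 1 h later, in mice that lose E47 in hepatocytes through Cre under the albumin promoter (Albcre/+ E47fl/fl, here E47LKO, n = 3), and in mice without Cre as controls, 1 of them E47fl/+ and 2 E47fl/fl. Each treatment was its own experiment, so treatment, library kit, date, RNA extraction and the state of the mice at death cannot be told apart in any comparison of treated with untreated liver. These comparisons also share the untreated libraries, and their values are therefore set side by side without an overlap or correlation between them.

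Most inducible P450 genes are switched on by ligand-activated transcription factors. The aryl hydrocarbon receptor (AhR) acts on Cyp1 genes, the constitutive androstane receptor (CAR) is known for Cyp2b genes and the pregnane X receptor (PXR) for Cyp3a genes, and at high doses Dex is also known as a ligand of mouse PXR. Glucocorticoids act through the glucocorticoid receptor (GR), which is known to raise CAR and PXR expression in hepatocytes. Several mouse P450 genes differ between the sexes, under control of the growth hormone pattern, and many lie in hepatocytes near the central vein.

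Sequences upstream of the genes on which the results turn are shown first, because several of the genes that moved lie in clusters of recent copies and their upstream letters show how alike the copies are. They are RefSeq promoter sequences of GRCm38.p6 (mm10), found for 41 of the 47 genes, and run 5′ to 3′ on the gene's strand, starting 250 bases before the RefSeq start and shortened where more than 30 bases would lie inside the Ensembl gene. Capitals mark AGAACA (the core letters of GR sites), AGGTCA or AGTTCA (core letters of nuclear receptor sites), CAGCTG or CACCTG (E-boxes, which E47 is known to bind) and TATAAA, on either strand. *Cyp2b10* is shown from chr7:25897408-25897649 on the plus strand, *Cyp2b13* from chr7:26061245-26061494 (plus), *Cyp2b9* from chr7:26173159-26173408 (plus), *Cyp3a11* from chr5:145879935-145880104 (minus), *Cyp3a16* from chr5:145469724-145469973 (minus), *Cyp2a5* from chr7:26835089-26835334 (plus) and *Cyp2a4* from chr7:26306942-26307191 (plus).
Cyp2b10: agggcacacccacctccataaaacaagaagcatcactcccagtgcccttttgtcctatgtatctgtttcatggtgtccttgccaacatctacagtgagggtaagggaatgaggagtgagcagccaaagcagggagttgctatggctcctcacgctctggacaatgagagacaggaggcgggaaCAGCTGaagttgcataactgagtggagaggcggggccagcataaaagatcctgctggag
Cyp2b13: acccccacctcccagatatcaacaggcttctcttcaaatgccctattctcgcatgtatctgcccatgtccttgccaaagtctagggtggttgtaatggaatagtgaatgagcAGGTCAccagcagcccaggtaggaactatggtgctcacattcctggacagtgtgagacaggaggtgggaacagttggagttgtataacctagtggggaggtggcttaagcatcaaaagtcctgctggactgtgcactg
Cyp2b9: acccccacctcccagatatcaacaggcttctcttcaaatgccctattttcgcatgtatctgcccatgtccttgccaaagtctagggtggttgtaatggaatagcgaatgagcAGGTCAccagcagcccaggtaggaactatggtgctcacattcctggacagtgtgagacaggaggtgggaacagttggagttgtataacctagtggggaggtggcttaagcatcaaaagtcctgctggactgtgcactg
Cyp3a11: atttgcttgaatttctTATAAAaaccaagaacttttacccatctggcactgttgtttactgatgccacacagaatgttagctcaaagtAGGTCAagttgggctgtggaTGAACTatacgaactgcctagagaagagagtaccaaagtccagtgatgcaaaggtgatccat
Cyp3a16: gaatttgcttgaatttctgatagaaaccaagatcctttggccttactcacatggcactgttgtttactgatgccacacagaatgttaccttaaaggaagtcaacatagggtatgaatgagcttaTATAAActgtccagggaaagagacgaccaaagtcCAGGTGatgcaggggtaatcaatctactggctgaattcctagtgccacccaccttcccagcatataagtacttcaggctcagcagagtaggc
Cyp2a5: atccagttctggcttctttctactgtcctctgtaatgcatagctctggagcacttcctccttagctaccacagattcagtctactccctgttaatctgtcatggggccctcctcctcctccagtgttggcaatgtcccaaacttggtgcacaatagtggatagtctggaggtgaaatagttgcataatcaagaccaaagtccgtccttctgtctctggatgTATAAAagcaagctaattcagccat
Cyp2a4: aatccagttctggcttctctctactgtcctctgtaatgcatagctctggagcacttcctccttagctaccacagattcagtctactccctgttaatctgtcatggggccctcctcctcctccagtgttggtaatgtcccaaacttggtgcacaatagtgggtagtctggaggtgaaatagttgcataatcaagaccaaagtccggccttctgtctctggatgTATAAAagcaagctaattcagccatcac

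The windows of *Cyp2b13* and *Cyp2b9* differed at 2 of 250 bases and those of *Cyp2a4* and *Cyp2a5* at 4 of 249 bases when set 1 base apart. Over the full windows of 250 bases, TATAAA stood in 21 of the 43 P450 promoters (48.8%) against 12.4% of all 32851 promoters. AGGTCA was found in 13 (30.2% against 14%), AGAACA in 11 (25.6% against 16.1%), CACCTG in 9 (20.9% against 17.2%), AGTTCA in 5 (11.6% against 11.8%) and CAGCTG in 3 (6.98% against 13%). GCGTG, core letters of AhR sites, stood in 5 (11.6% against 28.2%), and TTCNNNGAA, the pattern of STAT5 sites, in 0 (against 7.02%). Letters in a window are not evidence of a bound factor, and neighbouring copies share their letters.

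Liver libraries held 15.51 to 54.56 mega-counts in genes. The 9 hepatocyte marker genes were present in every group, with summed levels of 80906 to 156272 CPM. For liver, CPM is the count per mega-count in genes kept by the filter on low counts, with library sizes scaled by edgeR's TMM method. *Tcf3*, the gene that encodes E47 and its splice form E12, was at 6.12 to 19.3 CPM in all 30 livers, and gene counts cannot separate the forms, so they do not check the genotype. The file and library numbers form separate ranges, here called cohorts, in 3 of the experiments. In Cort livers, summed markers of skeletal muscle were at 0 to 0.02 CPM in cohort a (WT 1, E47KO 1 and 2) and at 109.61 to 151.3 CPM in cohort b, and summed periportal hepatocyte markers were at 3416 to 3676 CPM and 5187 to 10009 CPM. The summed adipocyte markers reached 8.23 to 89.3 CPM in livers after 3 weeks of Dex and 2.39 to 27.8 CPM in untreated livers.

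In untreated WT liver the 47 genes together took 1.93 to 2.96% of the TMM-scaled counts in genes (2.52% ± 0.416, SD, n = 5). The share was 2.27 to 2.32% in WT liver after Cort, 2.75 to 3.33% after 3 weeks of Dex and 2.15 to 2.61% in control liver 1 h after Dex, and so overlapped between untreated WT liver and each treated group. In bulk tissue, fewer cells of a type and less RNA per cell cannot be told apart. Levels between genes are compared per kilobase (kb) of exon. *Cyp2e1*, which oxidises ethanol and acetone, led with a mean of 4051 CPM per kb (8742 ± 1540 CPM, SD, n = 5). The next were *Cyp2d9*, a testosterone 16α-hydroxylase of male liver, with 717 CPM per kb, *Cyp3a11*, the main Cyp3a drug oxidase of mouse liver, with 663 CPM per kb, and *Cyp2a5*, a coumarin hydroxylase, with 620 CPM per kb. Their levels of 1906 ± 384, 3374 ± 1246 and 1285 ± 679 CPM (SD, n = 5) spread so widely that the order among these 3 is not resolved.

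Of all 47 genes, 19 had at least 100 CPM per kb, 13 had 1 to 100 and 15 were under 1 CPM per kb. The high class held the leading genes of several subfamilies, such as *Cyp2f2* (460 CPM per kb), a naphthalene oxidase found in periportal hepatocytes, *Cyp1a2* (344 CPM per kb), which demethylates caffeine, *Cyp2c29* (316 CPM per kb) and *Cyp2j5* (259 CPM per kb), both epoxygenases of arachidonic acid. In the middle class were *Cyp2r1*, a vitamin D 25-hydroxylase, with 8.78 CPM per kb, and *Cyp2u1*, a fatty acid hydroxylase, with 6.19 CPM per kb. The low class held the inducible *Cyp2b10* (0.434 CPM per kb) and *Cyp1a1* (0.363 CPM per kb), together with *Cyp1b1* (0.0646 CPM per kb), *Cyp2s1* (0.0985 CPM per kb) and *Cyp2t4* (0.0996 CPM per kb). Also in it were 5 of the 7 genes known as female-biased, *Cyp2a4*, *Cyp2b9*, *Cyp3a44*, *Cyp3a16* and *Cyp2b13*, with 0.728 CPM per kb for the first and 0.0159 CPM per kb for the last.

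**Figure D1:**
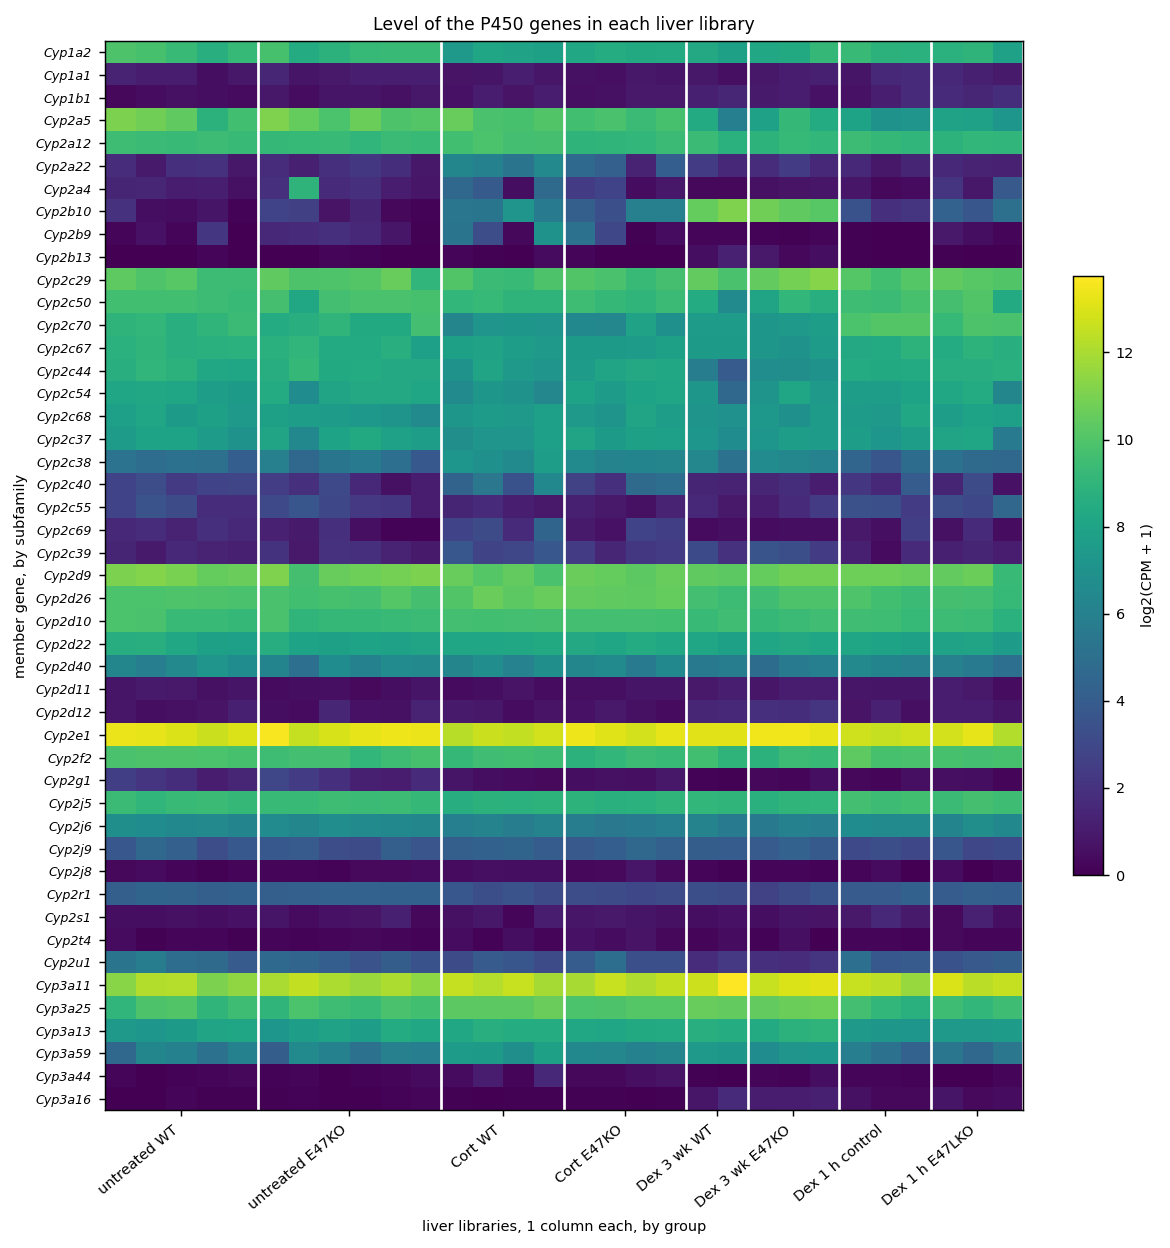
Level of the 47 P450 genes (rows, by subfamily) in each of the 30 liver libraries (columns, by group), as log2(CPM + 1). *Cyp2e1* is bright in every column, and the row of *Cyp2b10* turns from near 0 in untreated liver to bright after 3 weeks of Dex.

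Similar copies limit the resolution of some genes. Of all stretches of 50 bases in the longest transcript, 72.1% in *Cyp2c40*, 54.8% in *Cyp2c69*, 52.8% in *Cyp2c67* and 36.1% in *Cyp2a4* recur in another P450 gene, against 7.82% in *Cyp2b10* and 9.85% in *Cyp3a11*. In all, 22 of the 47 genes exceeded 10%, and their counts are uncertain to that extent.

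After 3 weeks of Dex, WT liver held far more *Cyp2b10*, more of 5 of the 6 Cyp3a genes, and less *Cyp2a5*, *Cyp2c44*, *Cyp2u1* and *Cyp1a2* than untreated WT liver. In edgeR's quasi-likelihood fit, with p-values adjusted after Benjamini and Hochberg over all 16227 genes tested, 9 P450 genes rose and 12 fell at an adjusted p under 0.05, or 44.7% of the 47, while 31.9% of all genes tested passed (15.6% higher and 16.3% lower). The median log2 fold change of the 47 was -0.55, against -0.04 for all genes. With 2 WT livers the single library weighs heavily, and the count was 14 without Dex WT replicate 2.

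*Cyp2b10*, the phenobarbital-inducible P450 (chr7:25897620-25926624), was at 2.94, 0.447, 0.391, 0.723 and 0.0828 CPM in the 5 untreated WT livers and at 1457 and 2197 CPM in the 2 WT livers after 3 weeks of Dex. The groups lie wide apart, and both Dex livers were far above every untreated one. The log2 fold change was 11.01 (SE 1.09, adjusted p = 4.2e-08), a 2061-fold higher level, and leaving out single libraries gave log2 values of 10.68 to 12.09. Its neighbour *Cyp2b13*, known as female-biased, had 0 counts in 4 of the 5 untreated WT livers and 0.149 CPM in the other, and 0.439 and 1.38 CPM after Dex. Its log2 fold change of 4.58 (SE 1.16, adjusted p = 0.0034) became 3.56 without Dex WT replicate 2 (adjusted p = 0.12) and 7.83 without untreated WT replicate 4. *Cyp2b9*, whose upstream window is almost the same as that of *Cyp2b13*, stayed at 0.146 and 0.179 CPM in the Dex livers, that is 3 counts in each, within the untreated range of 0.0276 to 3.49 CPM (adjusted p = 0.52).

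*Cyp3a11* was at 2503, 4574, 4830, 2090 and 2874 CPM in untreated WT liver and at 6606 and 13855 CPM after 3 weeks of Dex, above all untreated libraries. The change was 3.03-fold (log2 1.60, SE 0.31, adjusted p = 0.0003), and 0.97 on the log2 scale with an adjusted p of 0.082 without Dex WT replicate 2. Its female-biased relative *Cyp3a16* went from 0.0341, 0, 0.13, 0.0498 and 0.0552 CPM to 0.781 and 2.21 CPM (log2 4.62, SE 0.62, adjusted p = 3.5e-06). *Cyp3a59*, *Cyp3a25* and *Cyp3a13* rose by log2 1.60, 0.95 and 0.88 (adjusted p = 0.0057, 0.0036 and 0.0041), so that *Cyp3a44*, with 1 and 0 counts in the Dex livers, was the Cyp3a gene that did not pass (adjusted p = 0.33).

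Of the 5 genes listed as CAR or PXR responsive, *Cyp2b10* and *Cyp3a11* rose and 0 fell (median log2 0.24). *Cyp2c29*, *Cyp2c37* and *Cyp2c55* had log2 values of 0.24, -0.66 and -2.0 (adjusted p = 0.59, 0.26 and 0.05, the last not under the threshold). Of the 3 AhR responsive genes, *Cyp1b1*, best known from tissues outside the liver, rose from 0.205 to 0.547 CPM in untreated WT liver to 1.27 and 1.74 CPM (log2 1.96, SE 0.40, adjusted p = 0.0005). *Cyp1a2* fell instead, from 405 to 965 CPM to 312 and 223 CPM (log2 -1.37, SE 0.34, adjusted p = 0.0032), with an adjusted p of 0.086 without Dex WT replicate 2. *Cyp1a1* was at 0.83 and 0.479 CPM, inside its untreated range of 0.448 to 1.5 CPM (adjusted p = 0.33).

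*Cyp2a5* was at 2093, 1770, 1339, 453 and 773 CPM in untreated WT liver and at 336 and 59.5 CPM after 3 weeks of Dex. Both Dex libraries were below all untreated ones, but they differed several-fold from each other. Its level was 6.49-fold lower (log2 -2.70, SE 0.59, adjusted p = 0.00097), and the log2 value was -4.44 without Dex WT replicate 1 and -1.94 without replicate 2. *Cyp2c44*, an epoxygenase of arachidonic acid, went from 388, 530, 459, 308 and 284 CPM to 55.4 and 14.4 CPM, 11.3-fold lower (log2 -3.49, SE 0.40, adjusted p = 3.8e-07). *Cyp2u1* went from 38.2, 54.8, 28.9, 26.1 and 14.4 CPM to 2.3 and 3.83 CPM, 10.7-fold lower (log2 -3.42, SE 0.59, adjusted p = 7.7e-05). For both the groups stood clearly apart. *Cyp2g1*, a P450 known from olfactory tissue, had 1.1 to 4.81 CPM in untreated WT liver and 0.0977 and 0.0598 CPM, that is 2 and 1 counts, after Dex (adjusted p = 0.00021), and no fold is given for so few counts.

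Within Cyp2c, 1 gene rose and 5 fell of 13. *Cyp2c39* was at 0.963 to 1.93 CPM in untreated WT liver and at 7.67 and 2.87 CPM after Dex (log2 1.85, SE 0.49, adjusted p = 0.0053), but at log2 0.96 with an adjusted p of 0.32 without Dex WT replicate 1. *Cyp2c70*, which makes muricholic acids, the bile acids particular to rodents, fell from 389 to 656 CPM to 186 and 191 CPM (log2 -1.46, adjusted p = 0.0051, and 0.053 and 0.058 without Dex WT replicate 1 or 2). *Cyp2c67* fell by 1.28 on the log2 scale (adjusted p = 0.00021). *Cyp2c50* went from 630 to 784 CPM to 351 and 96.5 CPM (log2 -1.71, SE 0.43, adjusted p = 0.0032), and the log2 value was -2.93 without Dex WT replicate 1 and -1.06 (adjusted p = 0.13) without replicate 2. *Cyp2c54* and *Cyp2f2* also depended on replicate 2, without which the adjusted p of 0.035 and 0.028 became 0.42 and 0.44. *Cyp2e1*, at 8919 and 8873 CPM, was within its untreated range of 6453 to 10401 CPM (log2 0.03, SE 0.25, adjusted p = 0.95). Of the 8 pericentral P450 genes 1 rose and 4 fell (median log2 -1.01), while of 8 pericentral markers from other families 1 rose and 3 fell, and of 7 periportal ones 0 rose and 2 fell. *Cyp2d9*, the male-biased gene, was at 1350 and 1256 CPM against 1450 to 2364 CPM and did not pass.

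**Figure D2:**
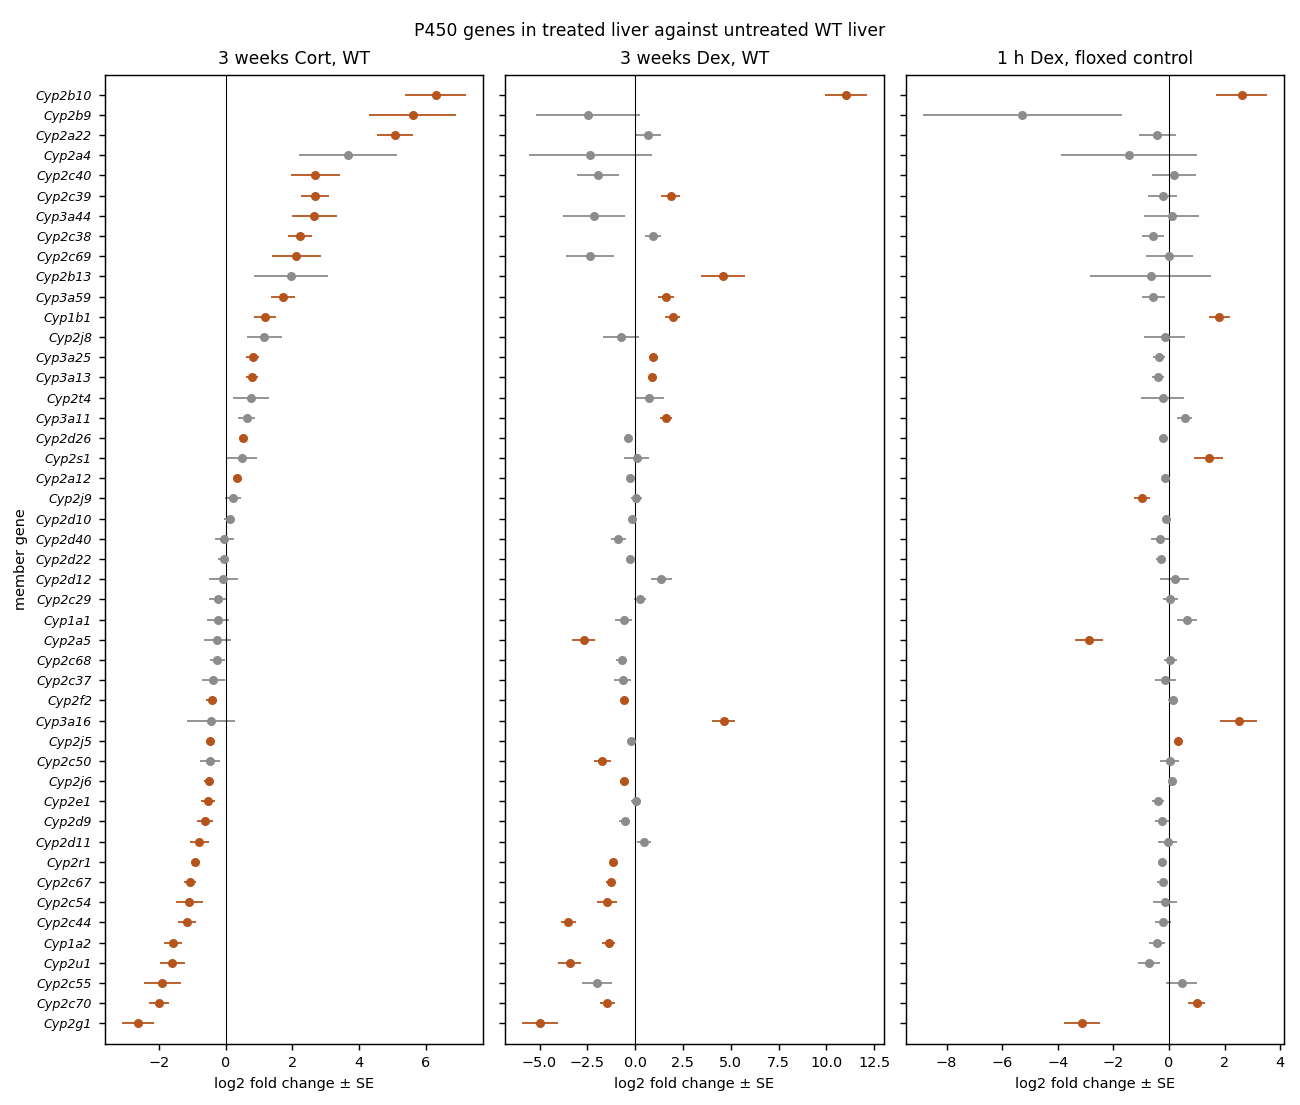
Log2 fold change of each P450 gene against untreated WT liver, after 3 weeks of Cort, after 3 weeks of Dex and 1 h after Dex (floxed control). Points are fitted values and bars ± SE, orange where the adjusted p is under 0.05 and grey where it is not, and *Cyp2b10* is past the threshold in all 3 panels, at 6.30, 11.01 and 2.61.

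After 3 weeks of Cort, WT liver held more *Cyp2b10* and *Cyp2a22*, more of several genes known from female liver, and less *Cyp2c70*, *Cyp1a2* and *Cyp2c44* than untreated WT liver. Here 14 P450 genes rose and 15 fell, or 61.7% of the 47, while 33.2% of all genes tested passed (17% higher and 16.1% lower). The median log2 fold change of the 47 was -0.06, against 0.01 for all genes.

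*Cyp2b10* was at 40.8, 40, 146 and 52.5 CPM in the 4 WT livers, above all untreated ones and below all livers after 3 weeks of Dex (log2 6.30, SE 0.91, adjusted p = 1.3e-05, 78.7-fold higher). *Cyp2a22* (chr7:26931631-26939384) was at 2.36, 0.998, 2.58, 2.96 and 0.883 CPM in untreated WT liver and at 78.6, 64.3, 37.7 and 86.7 CPM after Cort. The groups did not overlap, and the level was 33.9-fold higher (log2 5.08, SE 0.54, adjusted p = 3.3e-07). In WT liver after 3 weeks of Dex *Cyp2a22* was at 4.39 and 1.85 CPM, with a log2 value of 0.68 (SE 0.67, adjusted p = 0.46). Its closest copy is *Cyp2a12*, in which 25.7% of the stretches of 50 bases of *Cyp2a22* recur. *Cyp2a12* was at 780 to 916 CPM after Cort against 634 to 704 CPM in untreated WT liver (log2 0.33, adjusted p = 0.03). That call was lost in 6 of 17 alternative fits. *Cyp2a5*, another highly expressed relative, was at 878 to 1526 CPM after Cort, within the untreated range (log2 -0.25, adjusted p = 0.66). *Cyp3a11* was at 6089, 4867, 6190 and 3782 CPM (log2 0.63, adjusted p = 0.066).

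Of the 7 female-biased genes 4 rose and 0 fell (median log2 2.66). *Cyp2b9* was at 0.137, 0.585, 0.156, 3.49 and 0.0276 CPM in untreated WT liver and at 38.8, 8.66, 0.244 and 132 CPM after Cort (log2 5.61, SE 1.31, adjusted p = 0.002). The Cort livers other than replicate 3 were above all untreated livers, and replicate 3 lay within their range. The log2 value was 4.13 without Cort WT replicate 4 and 7.68 without untreated WT replicate 4, and passed in both. *Cyp2a4*, a testosterone 15α-hydroxylase, was likewise high in 3 livers and low in replicate 3, at 23, 14, 0.426 and 26.5 CPM against 0.524 to 1.79 CPM, and did not pass (log2 3.67, SE 1.47, adjusted p = 0.055). *Cyp2c40*, at 19.9, 42.6, 9.98 and 85.5 CPM against 4.12 to 8.53 CPM, did not overlap (log2 2.69, SE 0.73, adjusted p = 0.0061). *Cyp2c69* (log2 2.12, SE 0.73, adjusted p = 0.028) and *Cyp3a44* (log2 2.66, SE 0.67, adjusted p = 0.0034) were also lowest in replicate 3 and highest in replicate 4 of the 4 Cort WT livers. Without Cort WT replicate 4, *Cyp2c69* had a log2 value of 1.38 and an adjusted p of 0.18. *Cyp2c40* and *Cyp2c69* share most of their stretches of 50 bases with other Cyp2c genes, so their counts are uncertain. *Cyp3a16* and *Cyp2b13*, the female-biased genes that rose after 3 weeks of Dex, had log2 values of -0.44 and 1.96 after Cort (adjusted p = 0.67 and 0.18). The male-biased *Cyp2d9* was at 1532, 1123, 1395 and 901 CPM against 1450 to 2364 CPM (log2 -0.62, SE 0.24, adjusted p = 0.046, not passing in 9 of 17 alternative fits).

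**Figure D3:**
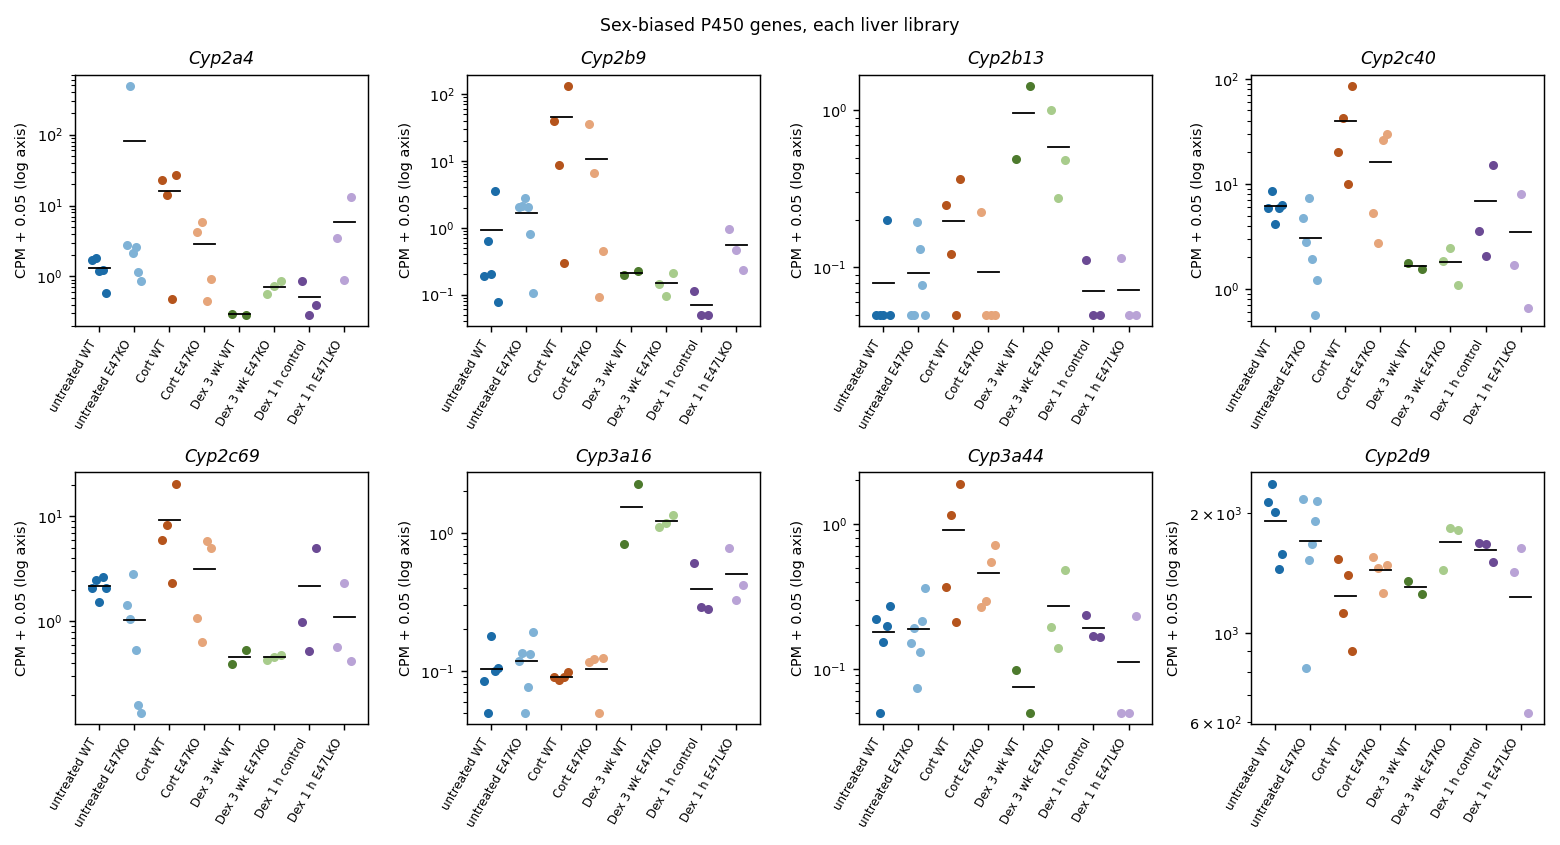
CPM + 0.05 on a log axis of the 7 female-biased P450 genes and the male-biased *Cyp2d9* in each liver library (points), with group means (bars). In the Cort WT group *Cyp2a4* and *Cyp2b9* split into 3 high libraries and 1 low one, and 1 untreated E47KO library holds *Cyp2a4* at 487 CPM.

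Among Cyp2c genes 4 rose and 5 fell of 13 after Cort. *Cyp2c39* was at 12.4, 5.98, 6.66 and 12.3 CPM against 0.963 to 1.93 CPM (log2 2.67, SE 0.42, adjusted p = 3.6e-05) and *Cyp2c38* at 147, 121, 92.4 and 210 CPM against 16.2 to 37.2 CPM (log2 2.23, SE 0.35, adjusted p = 3.3e-05). *Cyp2c70* was at 75.3, 141, 155 and 146 CPM against 389 to 656 CPM (log2 -2.0, SE 0.30, adjusted p = 2.4e-05). *Cyp2c55* fell by 1.90 on the log2 scale (adjusted p = 0.01) and *Cyp2c44*, at 134, 262, 167 and 146 CPM, by 1.15 (adjusted p = 0.0018). All of these were separate from untreated WT liver in every library, and *Cyp2c55* had an adjusted p of 0.069 against the untreated cohort b alone, a choice made after seeing the data. *Cyp1a2* was at 171, 282, 246 and 224 CPM against 405 to 965 CPM (log2 -1.58, SE 0.26, adjusted p = 7.6e-05), *Cyp1b1* rose by 1.19 on the log2 scale (adjusted p = 0.0074), and *Cyp1a1* had a log2 value of -0.24 (adjusted p = 0.60). *Cyp2g1* fell by 2.63 (adjusted p = 0.00024), *Cyp2u1* by 1.60 (adjusted p = 0.0023) and the vitamin D hydroxylase *Cyp2r1* by 0.91 (adjusted p = 2.3e-05) on the log2 scale. In Cyp3a, *Cyp3a59* (log2 1.72, SE 0.37, adjusted p = 0.00091), *Cyp3a25* and *Cyp3a13* rose together with *Cyp3a44*.

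Of the 8 pericentral P450 genes 0 rose and 3 fell after Cort (median log2 -0.42), and the calls of *Cyp2e1* and *Cyp2c54*, 2 of the 3, were lost in 11 and 9 of 17 alternative fits. *Cyp2e1* was at 4887, 6402, 5809 and 7101 CPM, 3 of the 4 below the lowest untreated library (log2 -0.53, SE 0.20, adjusted p = 0.043). *Cyp2f2*, the periportal P450, was likewise lower (log2 -0.42, adjusted p = 0.04, lost in 11 of 17). Of 7 periportal markers from other families 3 fell and 0 rose (median log2 -0.68), and of 8 pericentral markers 1 rose and 2 fell. The part of muscle RNA or of zonation in these values was not tested. With the Cort cohort b alone, a choice made after seeing the data, 25 P450 genes passed instead of 29.

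**Figure D4:**
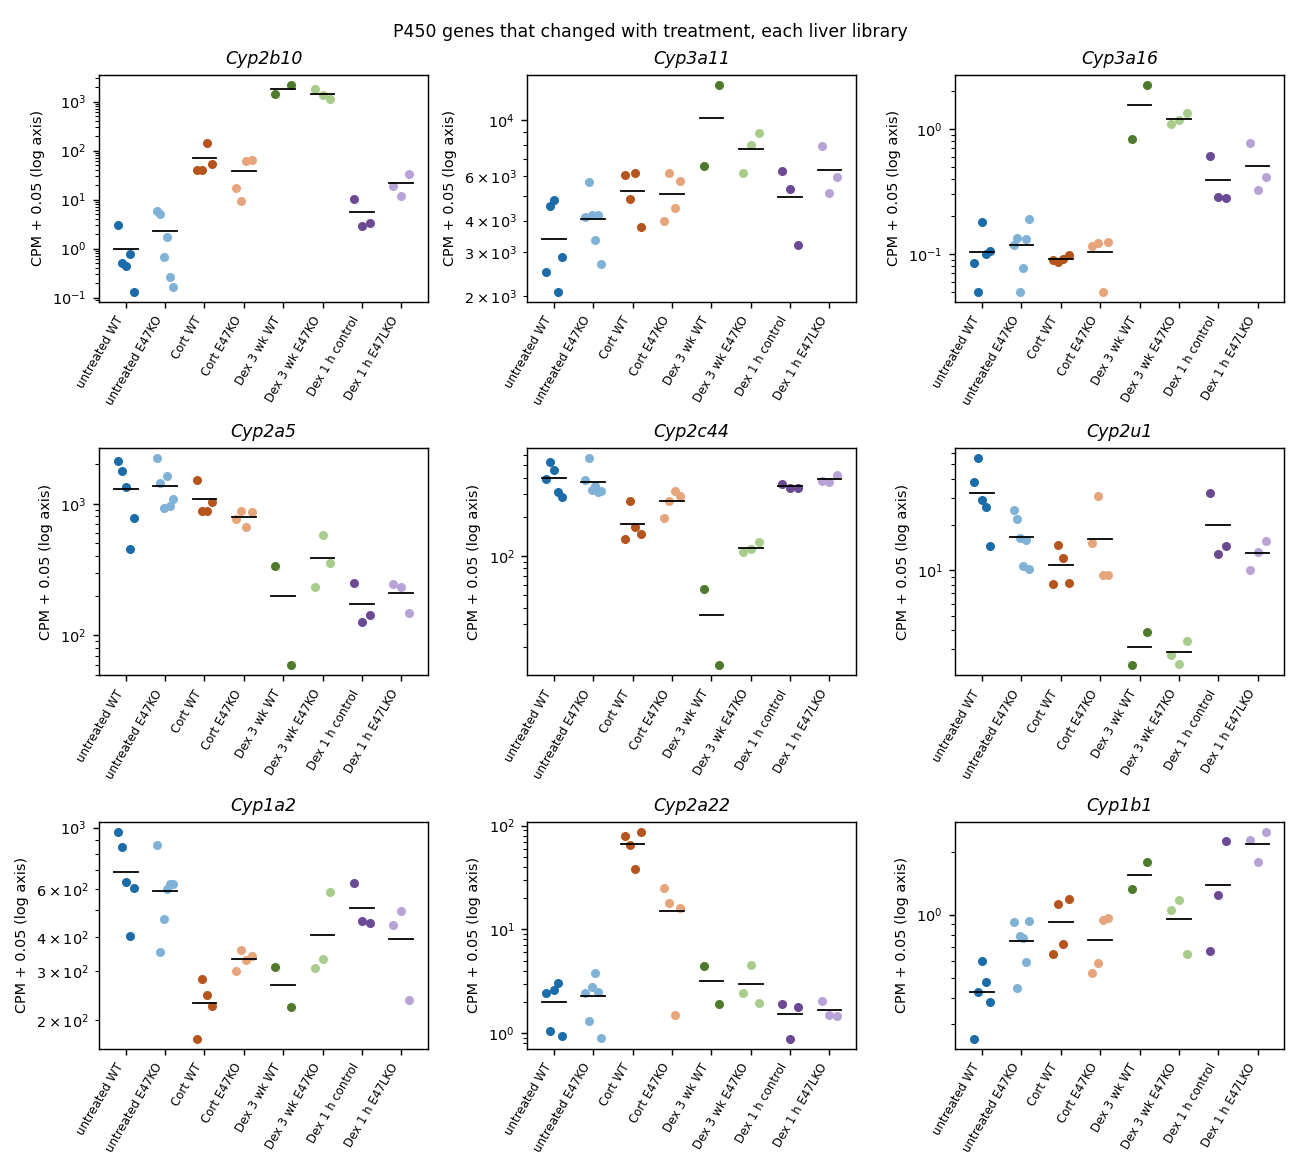
CPM + 0.05 on a log axis of 9 P450 genes that changed with treatment, in each liver library (points), with group means (bars). *Cyp2b10* is highest after 3 weeks of Dex and lower after Cort, *Cyp2a22* is high in Cort liver, and *Cyp2a5* is low in both Dex experiments.

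At 1 h after Dex, few P450 genes differed between floxed control liver and untreated WT liver, which came from another line of mice and another RNA extraction. Here 6 rose and 3 fell, or 19.1% of the 47, close to the 20.4% of all genes tested that passed (10% higher and 10.4% lower). *Cyp2a5* was at 249, 127 and 144 CPM, below all 5 untreated WT livers (log2 -2.89, SE 0.50, adjusted p = 0.00021, 7.42-fold lower), and *Cyp2g1* at 0.247, 0.179 and 0.463 CPM (log2 -3.13, SE 0.64, adjusted p = 0.001). *Cyp2j9* fell by 0.97 on the log2 scale (adjusted p = 0.016, lost in 5 of 15 alternative fits). *Cyp2b10* was at 10.1, 2.8 and 3.35 CPM, which overlaps the untreated library of 2.94 CPM (log2 2.61, SE 0.92, adjusted p = 0.045). That call was lost in 8 of 15 alternative fits, with an adjusted p of 0.27 without control replicate 1. *Cyp3a16* was at 0.556, 0.238 and 0.231 CPM, above all untreated libraries (log2 2.50, SE 0.68, adjusted p = 0.011), with an adjusted p of 0.1 without control replicate 1. *Cyp1b1* was at 0.618, 1.19 and 2.2 CPM (log2 1.81, SE 0.37, adjusted p = 0.00096) and *Cyp2c70* at 917, 1098 and 1090 CPM (log2 1.00, SE 0.30, adjusted p = 0.021, lost in 3 of 15 alternative fits). *Cyp2c70* was thus higher than in untreated WT liver here and lower after both long treatments. The calls of *Cyp2s1*, a P450 found mainly outside the liver (log2 1.42, adjusted p = 0.047), and of *Cyp2j5* (log2 0.32, adjusted p = 0.032) were lost in 11 and 7 of 15 alternative fits. *Cyp3a11*, at 6326, 5358 and 3199 CPM, and *Cyp1a2*, at 629, 459 and 449 CPM, overlapped the untreated livers and did not pass. Of the 7 female-biased genes 1 rose, *Cyp3a16*.

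In E47KO mice treated livers were compared with untreated E47KO livers, and *Cyp2b10* again had the largest rise in both long treatments. After 3 weeks of Dex 12 P450 genes rose and 11 fell, or 48.9% of the 47 beside 37.8% of all genes tested (19.4% higher and 18.4% lower), with a median log2 fold change of -0.09 (-0.02 for all genes). *Cyp2b10* ranged from 0.114 to 5.73 CPM, with a median of 1.13, in the 6 untreated E47KO livers and was at 1777, 1346 and 1153 CPM after Dex (log2 9.35, SE 0.92, adjusted p = 2.2e-08, 653-fold higher). *Cyp3a16*, at 1.05, 1.13 and 1.3 CPM, rose by 4.06 on the log2 scale (SE 0.54, adjusted p = 2e-06), and *Cyp3a11*, at 6189, 7964 and 8950 CPM against 2699 to 5680 CPM, by 0.93 (SE 0.27, adjusted p = 0.0086). *Cyp2b13*, at 0.951, 0.225 and 0.433 CPM, had a log2 value of 3.46 (adjusted p = 0.0084, and 0.099 without Dex E47KO replicate 1). *Cyp2c29*, at 1417, 1860 and 2473 CPM against 523 to 1528 CPM, rose by 0.83 (adjusted p = 0.012, and 0.11 without Dex E47KO replicate 3). *Cyp2u1*, *Cyp2a5* and *Cyp2c44* fell by 2.57, 1.82 and 1.69 on the log2 scale (adjusted p = 0.00011, 0.0031 and 7.6e-05). *Cyp1a2* was at 309, 333 and 583 CPM against 352 to 863 CPM and did not pass (log2 -0.53, SE 0.27, adjusted p = 0.13), and none of the 3 AhR responsive genes was called.

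After 3 weeks of Cort 7 P450 genes rose and 10 fell in E47KO liver, or 36.2% of the 47 beside 38.9% of all genes tested (21% higher and 18% lower), with a median log2 fold change of -0.01 for both. *Cyp2b10* was at 17.1, 9.44, 61.7 and 62.8 CPM (log2 4.11, SE 0.75, adjusted p = 0.00014, 17.3-fold higher). The lower pair are the cohort a livers, and all 4 were above the untreated ones. *Cyp2a22*, at 25, 17.8, 1.45 and 16.1 CPM against 0.855 to 3.76 CPM, was 6.73-fold higher (log2 2.75, SE 0.47, adjusted p = 7e-05), with replicate 3 inside the untreated range. *Cyp2c40* (log2 2.39, adjusted p = 0.008) was the female-biased gene that rose. It was at 5.25, 2.69, 26.2 and 30 CPM against 0.519 to 7.28 CPM, with the cohort a livers inside the untreated range. Its call was lost with the replicate number as a block. *Cyp2b9*, at 35.4, 6.5, 0.0415 and 0.395 CPM, and *Cyp3a44* had log2 values of 2.71 and 1.55 (adjusted p = 0.053 and 0.059). *Cyp2t4* rose by 1.54 (adjusted p = 0.017, and 0.065 without Cort E47KO replicate 3). Falling genes included *Cyp2g1*, *Cyp2c55* and *Cyp2c70*, with log2 values of -2.4, -2.37 and -1.79. *Cyp2a4* is a special case, since its log2 fold changes of -4.88 after Cort (adjusted p = 0.015) and -6.95 after Dex (adjusted p = 0.012) in E47KO liver rest on untreated E47KO replicate 2, at 487 CPM. Without that library they were 0.61 (adjusted p = 0.56) and -1.47 (adjusted p = 0.26).

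Loss of E47 itself was compared within each experiment, which is the comparison the study was built for. No P450 gene passed an adjusted p of 0.05 in any of the 4 genotype comparisons by edgeR, and few of all genes did, 0.00752% after 3 weeks of Dex, 0.0274% after Cort (0.00685% higher and 0.0206% lower), 0% at 1 h after Dex and 0.0288% in untreated liver (0.00719% higher and 0.0216% lower). The P450 genes with an unadjusted p under 0.05 numbered 3 of 41 tested after Dex, 16 of 45 after Cort (5 higher and 11 lower in E47KO), 3 of 40 at 1 h and 5 of 42 in untreated liver, beside 409 of 13300, 1435 of 14588, 466 of 12601 and 505 of 13904 genes. By DESeq2 6 P450 genes passed after Cort, beside 258 of all genes, and 0 in the other 3 comparisons, beside 25 genes after Dex, 4 at 1 h and 20 in untreated liver. The medians of the P450 log2 differences were 0.14 after Dex, -0.13 after Cort, 0.06 at 1 h and 0.01 in untreated liver.

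After Cort the smallest p belonged to *Cyp3a59*, at 194, 179, 115 and 224 CPM in WT and 85.2, 81.4, 64.8 and 76.5 CPM in E47KO liver (log2 -1.22, SE 0.19, adjusted p = 0.13 by edgeR). All E47KO libraries were below all WT libraries, and the log2 difference was -1.23 in cohort a and -1.30 in cohort b. This split was chosen after seeing the data. Cort WT replicate 1 is the only WT liver of cohort a, so all cohort a values given here rest on it. *Cyp2a12*, a highly expressed Cyp2a gene, was at 780, 916, 811 and 831 CPM in WT and 484, 507, 557 and 659 CPM in E47KO liver (log2 -0.61, SE 0.11, adjusted p = 0.18, with -0.67 in cohort a and -0.50 in cohort b). *Cyp2c54* went the other way, at 96.1, 155, 133 and 82.6 CPM in WT and 253, 195, 253 and 282 CPM in E47KO liver (log2 1.06, SE 0.20, adjusted p = 0.19, with 1.21 and 1.11 within the cohorts). *Cyp2c39* was at 4.3, 1.77, 3.72 and 4.3 CPM in E47KO liver, below all WT values (log2 -1.42, SE 0.34, adjusted p = 0.25, with -2.04 and -1.06 within the cohorts). *Cyp2c38* was at 92.4 to 210 CPM in WT and 69 to 95.3 CPM in E47KO liver, which overlap (log2 -0.88, SE 0.23, adjusted p = 0.28). Stretches of 50 bases that recur in another P450 gene made up 24.7% of *Cyp3a59*, 27.5% of *Cyp2a12* and 25.7% of *Cyp2c54*. They made up 11.4% of *Cyp2c39* and 7.45% of *Cyp2c38*, and the counts are uncertain to that extent. For these 5 genes DESeq2 gave adjusted p-values from 1.6e-06 to 0.021, and *Cyp3a59*, *Cyp2a12* and *Cyp2c54* passed in edgeR with a term for the cohort (adjusted p = 0.031, 0.046 and 0.044). With the replicate number as a block *Cyp3a59* and *Cyp2c39* passed (adjusted p = 0.043 and 0.048), and without Cort WT replicate 3 *Cyp3a59* did. *Cyp2e1*, at 7265 to 11041 CPM in E47KO and 4887 to 7101 CPM in WT liver, did not overlap and had a log2 difference of 0.59 (SE 0.16, adjusted p = 0.28), and *Cyp2a22* had one of -2.16 (SE 0.65, adjusted p = 0.33).

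After 3 weeks of Dex *Cyp2c44* was at 55.4 and 14.4 CPM in WT and at 107, 112 and 128 CPM in E47KO liver (log2 1.72, SE 0.51, adjusted p = 1 by edgeR). All 3 E47KO libraries were higher, and the difference was 3.01 on the log2 scale (adjusted p = 0.026) without Dex WT replicate 1 and 1.06 (adjusted p = 1) without replicate 2. The next were *Cyp2a4*, *Cyp2c29*, *Cyp2c37* and *Cyp2d12*, with log2 differences of 1.44 (SE 0.48), 0.75 (SE 0.30), 0.53 and 0.57, each with an adjusted p of 1. *Cyp2b10* did not separate the genotypes, since its 3 E47KO values of 1153 to 1777 CPM overlap the WT range of 1457 to 2197 CPM.

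At 1 h after Dex *Cyp2b10* was at 10.1, 2.8 and 3.35 CPM in control and 19.3, 11.9 and 32.8 CPM in E47LKO liver, without overlap (log2 2.0, SE 0.52, adjusted p = 1 by edgeR). *Cyp2a4* was at 0.803, 0.238 and 0.347 CPM and at 3.41, 0.834 and 13.2 CPM (log2 3.67, SE 0.98, adjusted p = 1), and its log2 difference was 2.20 without E47LKO replicate 3. The other 3 by rank, *Cyp2d40*, *Cyp2c44* and *Cyp3a13*, had log2 differences of -0.66 (SE 0.23), 0.20 and 0.19, none past the threshold.

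In untreated liver *Cyp2a4* was at 0.524 to 1.79 CPM in WT and at 0.798 to 487 CPM, with a median of 2.31, in E47KO liver. The log2 difference of 6.05 (SE 1.94, adjusted p = 0.97 by edgeR) became 0.55 without E47KO replicate 2. *Cyp2u1*, *Cyp1b1*, *Cyp2d11* and *Cyp2f2* followed with log2 differences of -0.97, 0.86, -0.80 and -0.34, each with an adjusted p of at least 0.97. A different effect of genotype in treated and in untreated liver was tested for in the fit over 30 livers. No P450 gene passed by edgeR or DESeq2, and 0.00616% of all genes did by edgeR, for Cort as for Dex. At an unadjusted p under 0.05 there were 10 of 47 P450 genes for Cort, beside 1118 of 16227 genes tested. For Dex there were 2 of 47, beside 672 of 16227. The smallest adjusted p of a P450 gene by edgeR was 0.39 for Cort and 0.74 for Dex. *Cyp2a22* had a log2 value of -2.33 for Cort (SE 0.70, adjusted p = 0.50 by edgeR). *Cyp2c44* had one of 1.80 for Dex (SE 0.44, adjusted p = 0.74). For *Cyp2c44* the difference passed without Dex WT replicate 1.

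**Figure D5:**
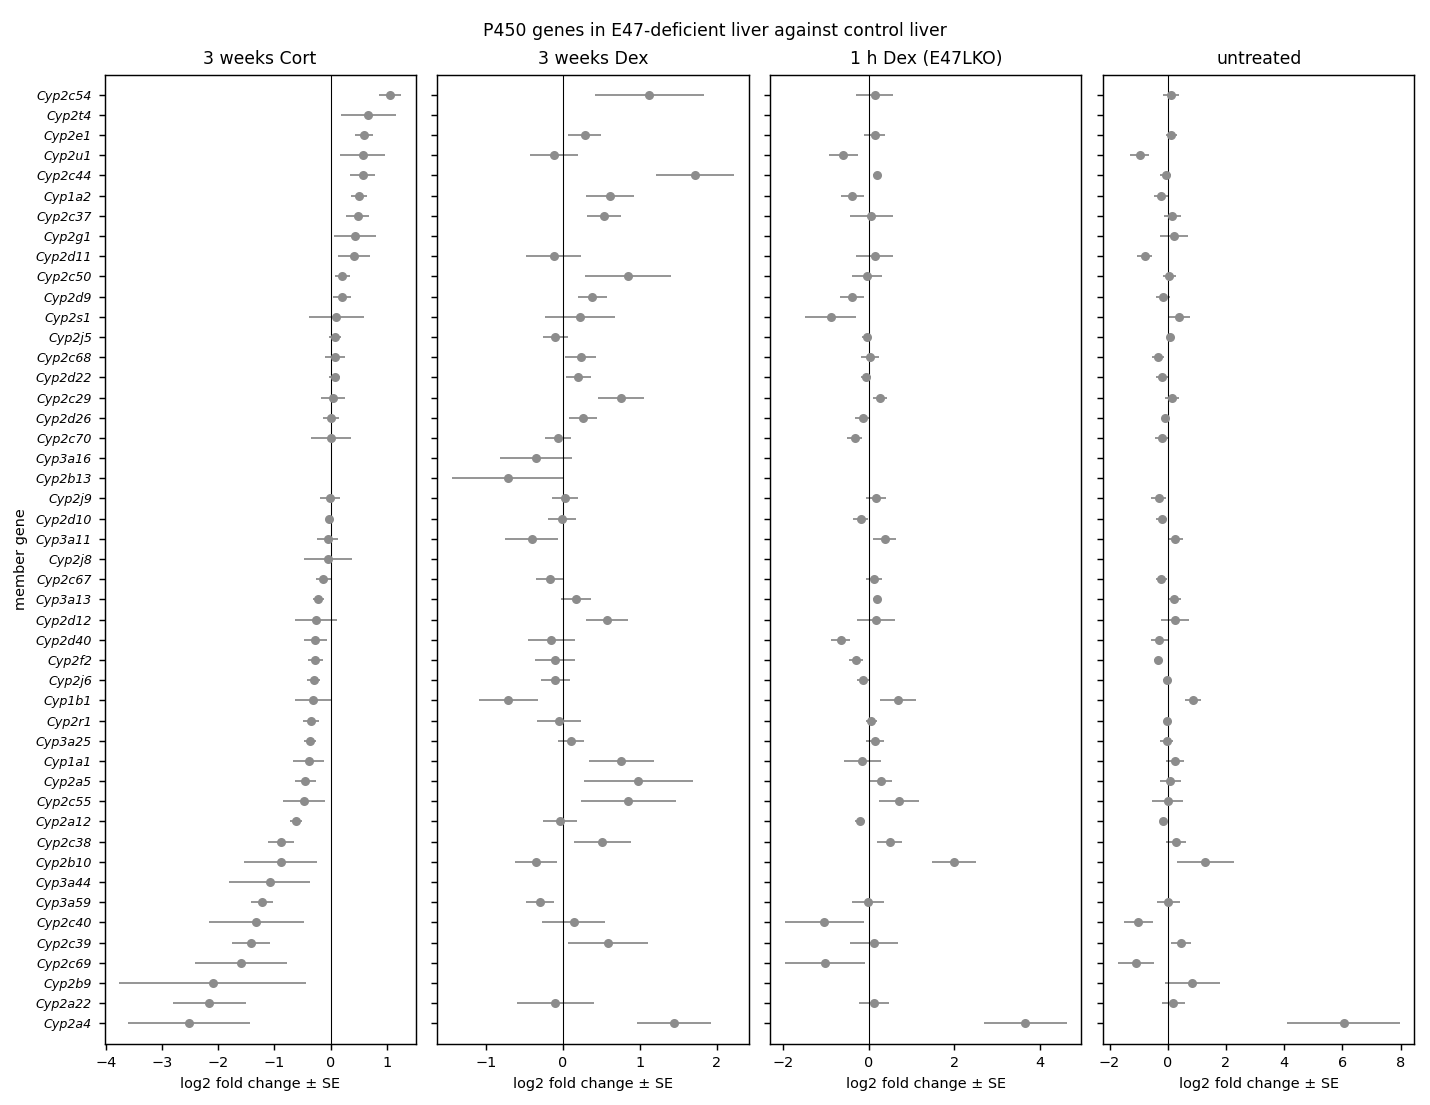
Log2 fold change of each P450 gene in E47-deficient against control liver of the same experiment, with bars ± SE. All points are grey, since none had an adjusted p under 0.05, and in the Cort panel 11 of the 16 genes with an unadjusted p under 0.05 lie below 0.

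Genes of the P450 system outside the families were read from fixed lists. Of 16 receptors and transcription factors tested, 5 rose and 1 fell in WT liver after 3 weeks of Dex, 2 rose and 0 fell after Cort, and 2 rose and 6 fell 1 h after Dex, where 31.9%, 33.2% and 20.4% of all genes tested passed in either direction. In the first of these *Cebpb* (log2 2.4, adjusted p = 3.7e-06), *Ahr* (1.58, adjusted p = 0.00014) and its partner *Arnt* (0.98, adjusted p = 0.00024) led the rising genes, and *Ppara* fell by 1.07 (adjusted p = 0.019). *Nr1i2*, which encodes PXR, *Nr1i3*, which encodes CAR, and *Nr3c1*, which encodes GR, had log2 values of 0.42, -0.05 and -0.02 there (adjusted p = 0.15, 0.91 and 0.95). After Cort *Nr1i3* (0.77, adjusted p = 0.0067) and *Nfe2l2* (0.52, adjusted p = 0.01) rose. At 1 h *Ahr* rose by 1.74 (adjusted p = 3.8e-05), while *Nr1i3* fell by 1.23 (adjusted p = 0.00094) and *Foxa2* by 1.06 on the log2 scale. *Nr1i3* was thus higher in WT liver after Cort and lower 1 h after Dex. In E47KO liver 4 rose and 1 fell after Cort and 6 rose and 3 fell after Dex. There 38.9% and 37.8% of all genes tested passed in either direction. *Nr1i3* was among the rising genes both times (log2 1.07 and 0.68).

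P450s need electrons and heme. *Por*, the reductase that passes electrons to all microsomal P450s, rose after 3 weeks of Dex (log2 0.77, adjusted p = 0.003) and fell 1 h after Dex (log2 -1.23, adjusted p = 3.4e-05). *Cyb5r3*, the reductase of cytochrome b5, fell after 3 weeks of Dex (log2 -1.33, adjusted p = 2.5e-05) and after Cort (log2 -0.76, adjusted p = 0.00066), as did *Cyb5a*, cytochrome b5 itself (log2 -0.74 and -0.48). Of 9 genes of heme synthesis and breakdown, 6 fell and 0 rose in WT liver after 3 weeks of Dex (median log2 -0.51), where 16.3% of all genes tested fell and 15.6% rose. Among the 6 were *Alas1*, the rate-limiting enzyme of the pathway (log2 -1.05, adjusted p = 0.03), and *Alad* (log2 -1.31, adjusted p = 0.00043). In E47KO liver 6 fell and *Hmox1*, which breaks heme down, rose (log2 1.79), where 18.4% of all genes tested fell and 19.4% rose. After Cort 1 of the 9 rose and 1 fell in WT liver, and at 1 h none passed. None of these receptor, electron transfer or heme genes passed in a genotype comparison.

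The other tissues of mice given Dex for 3 weeks were epididymal white adipose tissue (4 libraries) and quadriceps muscle (5 libraries). There P450 genes were read as levels only, in CPM without the TMM scaling used for liver. In adipose tissue 12 of the 47 had a mean of at least 1 CPM. *Cyp2e1* led with 7001 CPM, followed by *Cyp2d22* (308 CPM), *Cyp1b1* (192 CPM), *Cyp2f2* (104 CPM) and *Cyp2j6* (34.5 CPM), so that *Cyp1b1*, at no more than 2.44 CPM in any liver, was among the highest there. *Cyp2b10* had a mean of 13.7 CPM and *Cyp3a11* of 3.53 CPM in adipose tissue. In muscle 7 genes reached 1 CPM, *Cyp2e1* with 64.4 CPM (7.41 to 130 CPM) ahead of *Cyp2d22* with 19.9 CPM and *Cyp1b1* with 3.24 CPM.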

How the data were processed

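Poly(A) RNA of liver, adipose tissue and muscle was sequenced, and 30 liver libraries of 39 entered the tests. The authors mapped reads to mm10 with STAR 2.4.2a and deposited, for each sample, a file of raw counts by gene. HTSeq and DESeq2 are also named in the submitters' processing notes, and which program counted the libraries of 3 weeks of Dex is not certain. The other files hold 1 column without strand and 1 for each strand. The deposited comparison tables hold a signal, the gene count divided by the authors' size factor, and their own log2 fold changes and p-values, which were not used. That signal was proportional to the column without strand in all 30 livers (100% of genes within 0.001 of the median ratio). The column without strand was therefore used throughout, although Cort livers labelled as stranded held only 50.1% of strand-resolved counts in the larger strand column.

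Entries outside genes were left out (20.8 to 36.76% per library). Liver CPM is the count per mega-count in the genes kept by filterByExpr, with library sizes scaled by TMM. CPM of adipose tissue and muscle is the count per mega-count in genes, without that scaling. Fold changes come from the fits. Genotypes were compared within each experiment and treatments in 1 fit over 8 groups, with edgeR 4.0.16 (R 4.3.3, TMM, filterByExpr, quasi-likelihood F test, two-sided, Benjamini-Hochberg over all genes tested). DESeq2 1.42.0 and the other alternatives are given in the closing section. The fitting code was tested on simulated data. Floors of counts cover counting error only. The sources do not say that each library is a separate litter, and p-values measure the spread between these libraries.

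The members and gene lists were chosen with earlier results of these data known. Named genes were, for each genotype comparison, those past an adjusted p of 0.05, or else the 5 of smallest p. For each treatment comparison they were the 5 of largest change in each direction past it. The top gene of each subfamily and the role lists (AhR, CAR or PXR, sex-biased, zonal) were added. Other genes named with values, such as *Cyp2e1*, *Cyp2b10* in further comparisons and the remaining called members, were chosen after their values were seen. Cohorts are ranges of the animal numbers or library numbers given with the samples, and what sets them apart is not stated. Protein sequences were not used here, and 1 gene is left out of the list of receptors and transcription factors and is not reported here.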

Additional observations from a re-analysis of the deposited data

Results flagged for a closer look

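Of 156 tests for a library far from the rest of its group, chance alone flags about 1 in 20, and 8 were flagged. Of these 6 concern untreated E47KO replicate 2. *Cyp2a4* was at 487 CPM there (next 2.76 CPM) and *Cyp2c44* at 562 CPM (next 384 CPM), both the highest of 6 livers. The 4 others were lowest of 6, *Cyp2c37* at 85.2 CPM (next 203 CPM), *Cyp2c50* at 293 CPM (next 786 CPM), *Cyp2c54* at 103 CPM (next 260 CPM) and *Cyp2d9* at 817 CPM (next 1526 CPM). The same library held a skeletal muscle marker sum of 196.43 CPM. Its summed pericentral markers were the lowest of the 6 livers, at 1826 CPM (next 2383 CPM). Its summed periportal markers were the highest, at 13921 CPM (next 11912 CPM). Untreated WT replicate 4 held a higher muscle marker sum of 226.28 CPM, with *Cyp2a4* at 1.2 CPM, *Cyp2c50* at 699 CPM and *Cyp2c54* at 203 CPM. The part of muscle RNA or of zonation in the flagged values was not tested. *Cyp2c38* was low in untreated WT replicate 5, at 16.2 CPM (next 29.5 CPM), and *Cyp2c70* in Cort WT replicate 1, at 75.3 CPM (next 141 CPM).

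Outside liver, *Cyp2e1* stood out with a mean of 7001 CPM in adipose tissue and 64.4 CPM in muscle of mice given Dex, tissues that entered no P450 comparison. The samples include no untreated adipose tissue or muscle.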

How the results depend on the processing

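Of 187 recounts of P450 calls under other settings, 175 stayed within 1.5 times the reported count. Where the reported count was 0, as for genotype and for the differences of genotype effects, a recount of 0 counted as within. The treatment comparisons ranged, with single libraries left out, over 23 to 29 genes for Cort and 14 to 24 for 3 weeks of Dex in WT liver (14 without Dex WT replicate 2), and over 16 to 18 and 18 to 23 in E47KO liver. At 1 h after Dex they ranged from 4 to 8 (4 without control replicate 1 or 3, 5 without untreated WT replicate 2), and a fit of only the groups compared gave 5. The genotype comparison after Cort, with 0 calls, gave 6 with DESeq2, 3 with a cohort term, 1 without a filter on low counts and 0 to 1 with single libraries left out. That after 3 weeks of Dex gave 1 without the filter (*Cyp2c44*) and 0 to 1 with single libraries left out, and the difference of genotype effects for Dex 0 to 1, in both the 1 being *Cyp2c44* without Dex WT replicate 1. Why these counts moved was not tested.

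The replicate numbers were not taken as pairs in the main fits. The correlation of same-numbered libraries ranged from -0.494 to 0.795. It was 0.018 to 0.717 after Cort and 0.061 to 0.795 in untreated liver. Differently numbered libraries were not compared, so these values do not settle whether the numbers pair the samples. With the number as a block, 2 genes passed for genotype after Cort (*Cyp2c39* and *Cyp3a59*), and the other comparisons kept within 1.5 times their counts.

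For 119 single-gene results, 1693 alternative values kept their call, 165 lost it, 14 gained it and 2 changed sign. *Cyp2a4* after Cort in E47KO liver ranged from -5.48 to 0.61 on the log2 scale with single libraries left out, the 0.61 without untreated E47KO replicate 2. *Cyp2d11* after Cort in WT liver was 0.34 with the strand column, against -0.79. DESeq2 gave no adjusted p for 3 results. Depth limits genes under 1 CPM, such as *Cyp2b13* and *Cyp3a16*, most in the libraries of 3 weeks and 1 h of Dex, which were the shallowest. The cohort fits and those with 1 cohort alone include choices made after seeing the data.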

Other observations

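A liver of the 1 h experiment, E47LKO replicate 3, was singled out after its values were seen because the same genes as in untreated E47KO replicate 2 stood at the edge of its group. *Cyp2a4* was at 13.2 CPM there and at 3.41 and 0.834 CPM in the other E47LKO livers. *Cyp2c37* was at 49.9 CPM (the others at 258 and 267 CPM), *Cyp2c50* at 334 CPM (819 and 1026 CPM), *Cyp2c54* at 79.1 CPM (301 and 356 CPM) and *Cyp2d9* at 633 CPM (1426 and 1631 CPM). *Cyp2c44*, at 421 CPM (377 and 373 CPM), and *Cyp2c55*, at 22.3 CPM (8.65 and 7.02 CPM), were highest in this liver. In untreated E47KO replicate 2 *Cyp2c55* was also the highest of its group, at 11.8 CPM (next 7.25 CPM). Summed pericentral markers were lowest in E47LKO replicate 3, at 1584 CPM (1851 and 2297 CPM). Its summed periportal markers were highest, at 15455 CPM (11184 and 13514 CPM). The part of zonation in these values was not tested.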
